A study of Mus musculus with 8 samples.

Results

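Of 8 mouse pancreatic tumours profiled by RNA sequencing, 4 are titled WT, and their genotype labels divide them into 2 with 1 floxed Lifr allele (f/+) and 2 with none (+/+). These 4 tumours, grouped by the genotype label, were compared here, and the other 4, which have both Lifr alleles floxed (f/f) and are titled KO, served to share the estimate of the spread and to show where f/f tumours fell. The mice were FVB/NJ by label and 44 to 49 days old. Each carried floxed Trp53 on both chromosomes (Trp53f/f), a Cre-dependent luciferase reporter (Rosa26LSL-Luc) and the Pdx1-Cre transgene. Pdx1-Cre acts in the pancreatic epithelial lineage from early development, so recombination is not confined to tumour cells, and macrophages and other host cells keep an unrecombined Lifr. Tumours were dissociated one by one, and cells bearing EpCAM, an epithelial adhesion protein, were sorted before RNA extraction. The labels give no litter, batch or sorting day. P-values therefore measure the spread between these tumours only, and an exact permutation test of 2 tumours against 2 could not go below 0.333.

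Leukaemia inhibitory factor (LIF) binds LIFR, which pairs with the shared subunit gp130, the product of Il6st, and activates JAK kinases and the transcription factor STAT3. STAT3 induces Socs3, which feeds back on the receptor complex. In pancreatic cancer LIF comes largely from stromal cells and acts on tumour cells that bear LIFR. A floxed allele is flanked by loxP sites and is normally functional until Cre deletes the segment between them, so an f/+ tumour with Pdx1-Cre can lose 1 of its 2 Lifr copies.

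Lifr transcript counts did not separate the genotypes. In counts scaled for composition to a library of 1000000 (CPM), Lifr was at 126 and 93.5 in f/+ replicates 1 and 2 and at 71.8 and 99.5 in +/+ replicates 1 and 2. The ranges overlapped, with f/+ replicate 2 below +/+ replicate 2. The log2 fold change, f/+ minus +/+, was 0.36 ± 0.25 (SE), with a 95% interval of -0.22 to 0.93 and an edgeR adjusted p of 0.999. That interval does not include a 2-fold loss, but the floxed exon is not named in the labels, and counts over the whole transcript (chromosome 15, 7140542 to 7197489, plus strand, mm10) do not test its deletion. The tumours labelled f/f had 158, 205, 150 and 220 CPM, all above the f/+ and +/+ tumours, with an adjusted p of 0.0383 against +/+ and 0.0655 against f/+. Among the 57 genes tested within 20 Mb of Lifr, edgeR called none, DESeq2 called 1, and none was separated by the rule given below. An unadjusted edgeR p under 0.05 was found for 5 of the 57 (8.77%), against 5.12% of all tested genes. The gene called by DESeq2 was Ghr, the growth hormone receptor gene, which had 59.3 and 55.3 CPM in f/+ against 34.1 and 31.0 in +/+. The Ghr difference was 0.81 ± 0.14 on the log2 scale (adjusted p = 0.669 with edgeR and 0.00046 with DESeq2), and Ghr is named after its values were seen.

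Intervals were narrow for Il6st and wider for Osmr and Lif. Il6st had 137 and 134 CPM in f/+ and 136 and 136 in +/+, a difference of 0.00 with an interval of -0.25 to 0.24 on the log2 scale. Osmr, which encodes the oncostatin M receptor subunit that also pairs with gp130, had 36.0 and 38.4 CPM against 25.5 and 47.1 (log2 interval -0.96 to 1.04). Lif itself had 57.3 and 58.9 CPM against 46.3 and 84.7, so both f/+ tumours lay inside the +/+ range (log2 interval -1.20 to 0.86). Socs3 had 478 and 333 CPM in f/+ and 401 and 542 in +/+ (log2 difference -0.22 ± 0.23, adjusted p = 0.999). Osm, the ligand gene next to Lif that is made mainly by myeloid cells, had both f/+ tumours below both +/+ tumours, at 280 and 166 CPM against 441 and 495. Its difference of -1.07 ± 0.33 had an adjusted p of 0.873 and was not called. Il31ra, the receptor subunit for interleukin-31, lay the other way at 1.61 and 1.81 CPM against 0.538 and 0.588 (adjusted p = 0.908).

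**Figure D1:**
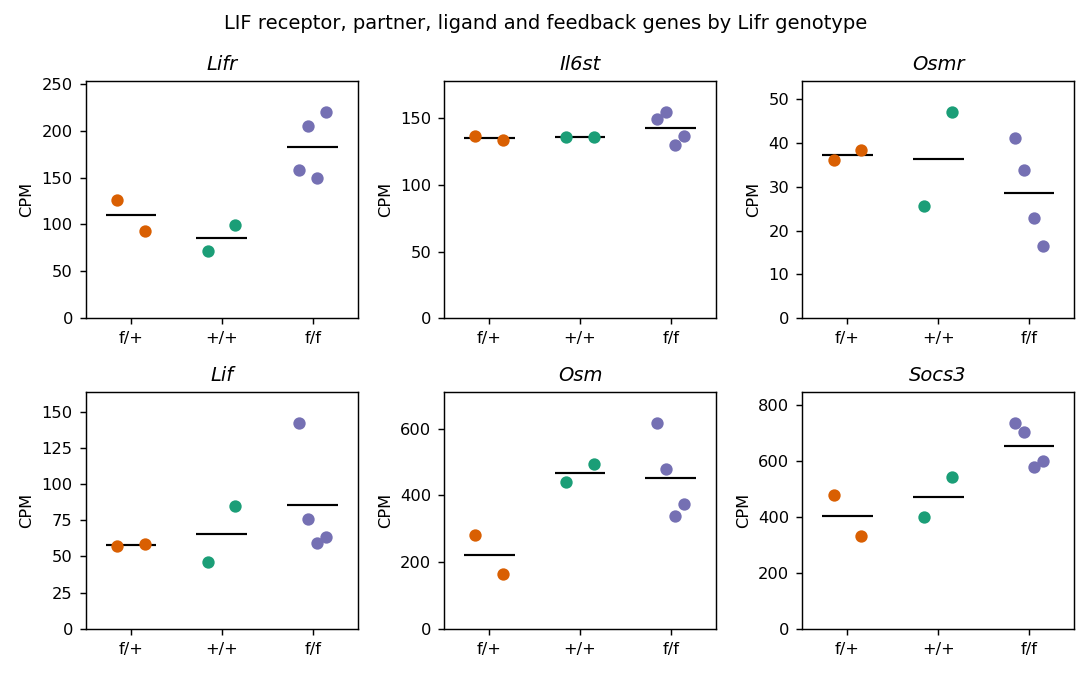
CPM of 6 genes of the LIF pathway in each tumour, with 1 point per tumour, the mean as a line, and Lifr genotype on the horizontal axis (2 f/+, 2 +/+ and 4 f/f tumours). Osm is the one gene shown with both f/+ tumours, at 280 and 166 CPM, below both +/+ tumours.

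Per kilobase, Il6st stood above Lifr in each of the 4 tumours: Il6st had 14.5 and 15.5 FPKM in f/+ and 14.5 in both +/+ tumours. Lifr had 7.88 and 6.25 FPKM in f/+ and 4.63 and 7.14 in +/+. Osm was the highest of the 18 family genes on this scale, at 84.6 and 54.8 FPKM in f/+ and 135 and 151 in +/+. None of the 18 genes was called by edgeR or DESeq2, the median log2 difference was -0.10, and 2 had an unadjusted p under 0.05. The median over all tested genes was -0.01. In the list of JAK and STAT3 signalling and response genes none of 30 was called by either tool, 1 had an unadjusted p under 0.05, and the median was -0.07. Cebpb, a transcription factor gene induced by cytokines, had the smallest p of that list, with 250 and 209 CPM in f/+ against 355 and 404 in +/+ (adjusted p = 0.864).

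Across all genes 1 transcript passed the edgeR test between f/+ and +/+ tumours. Of 24537 genes, 15284 passed the filter on low counts, and edgeR's quasi-likelihood test called 1 of them at an adjusted p under 0.05, or 0.00654%. At an unadjusted p under 0.05 there were 782 genes, or 5.12%, of which 353 were higher and 429 lower in f/+. The same fit called 13.3% of genes between f/f and f/+ and 6.79% between f/f and +/+; those comparisons have more tumours and share tumours with this one. The median 95% interval, unadjusted, reached 0.513 log2 units to either side, so many changes below that size could not be seen. Larger gaps also went uncalled after adjustment, such as Rps2 at a log2 difference of 5.63 (edgeR adjusted p = 0.864). An uncalled gene was therefore not shown to be equal between genotypes. Without f/f replicate 2 the f/+ against +/+ count was 15, without f/f replicate 3 it was 0, and DESeq2's Wald test on the same genes called 58. Counts summed to between 16196148 and 21255385 in the 4 tumours, and log2 CPM correlated at 0.962 within f/+, 0.975 within +/+ and 0.955 to 0.975 between them.

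The called gene was BC018473, a long noncoding RNA gene without an assigned function (chromosome 11, 116752167 to 116757883, plus strand, mm10). It had 71.5 and 80.0 CPM in the f/+ tumours and no count in either +/+ tumour. Against a floor of 3 counts over the +/+ tumours, the f/+ level was at least 996-fold higher, and the adjusted p was 0.00198. The f/f tumours had 0, 0, 1 and 0 counts, so they lay with the +/+ tumours and not with the f/+ tumours (f/f against f/+, adjusted p = 0.00029; f/f against +/+, adjusted p = 0.573). Without f/f replicate 3, the tumour with the single count, the adjusted p of f/+ against +/+ was 0.0947. GENCODE M21 classes the gene as antisense but has no gene overlapping it on the other strand. The strandedness of the libraries is not stated, so reads from either strand there could not be told apart. Its neighbour St6galnac2, a sialyltransferase gene, had 34.3 and 39.8 CPM against 15.6 and 17.1 (adjusted p = 0.962). The next gene on the other side, Mxra7, differed by 0.45 ± 0.52 on the log2 scale.

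An all-or-none rule needed no test: both tumours of 1 genotype with 20 counts or more, and both of the other with 3 or fewer. It was met by 5 genes of the 24537 in the table, all on in f/+ and off in +/+, and by none the other way. BC018473 was the most abundant. Tmem181b-ps, a transcribed pseudogene of the Tmem181 family on chromosome 17 (6439002 to 6450994, minus strand), had 159 and 180 counts in f/+ and 1 and 0 in +/+. Its ratio was 327, with a counting interval of 58.3 to 12963, and its adjusted p was 0.111 with edgeR and 4.6e-05 with DESeq2. It was also off in all 4 f/f tumours, at 0, 0, 1 and 0 counts. The family member Tmem181a, nearby on the same chromosome, had 17.4 and 14.4 CPM in f/+ and 18.1 and 17.2 in +/+ and did not share the pattern. Reads of near-identical copies can be counted for either, so the level of the pseudogene is uncertain.

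The other 3 all-or-none genes were low in abundance and were detected in the f/f tumours. Ndufs5, which encodes an accessory subunit of respiratory complex I, had 22 and 31 counts in f/+ and 1 and 1 in +/+, with 25, 19, 31 and 35 in f/f. Its highest level in the 8 tumours was 2.15 CPM, in f/f replicate 3. The respiratory chain list lay far above that, at a mean of 5.98 to 6.21 log2 CPM per tumour. Whether the Ndufs5 counts hold all reads of the gene was not tested, so its loss in +/+ is not shown. Mucl1, a small mucin-like secreted protein gene, had 104 and 55 counts against 1 and 1, with 42, 54, 16 and 128 in f/f. Prg2, the eosinophil granule major basic protein gene, had 39 and 35 counts against 0 and 0, with 24, 12, 78 and 57 in f/f. In each of these 3 the +/+ tumours were the lowest of the 8, at 0 or 1 count. Ratios were 25.6 for Ndufs5 (6.74 to 217) and 76.7 for Mucl1 (20.9 to 639), and at least 23.8 for Prg2. These intervals and floors cover counting error only. With edgeR the adjusted p was 0.169 for Ndufs5, 0.669 for Mucl1 and 0.864 for Prg2, and DESeq2 called all 3.

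**Figure D2:**
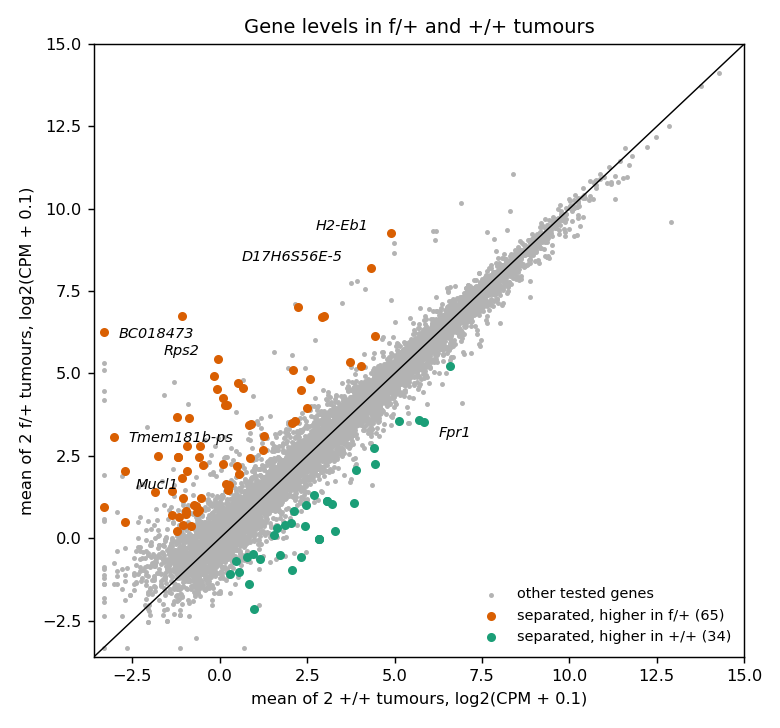
Mean level of each of 15284 tested genes in the 2 f/+ tumours against the 2 +/+ tumours, both axes as log2(CPM + 0.1), with the line of equality. Orange points are the 65 genes separated at least 2-fold and higher in f/+, green points the 34 higher in +/+, and BC018473 stands at the left edge with 0 counts in +/+.

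A looser description, added after values were seen, counted a gene as separated where every tumour of 1 genotype was at least 2-fold above every tumour of the other and at 1 CPM or more. It took 99 genes, or 0.648% of those tested, at 89 loci once overlapping transcripts were counted once. Of these 65 were higher in f/+ (0.425%) and 34 higher in +/+ (0.222%). No run of 3 or more called genes existed anywhere, since 1 gene was called. Of the 99 genes 24 lay in the stretches of chromosomes 17, 2 and 7 described below and 75 lay elsewhere. Chromosome 17 held 15 of its 796 tested genes (1.88%), the highest share, and chromosomes 10, X and Y held none.

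Between Atp6v0c and H2-T22 on chromosome 17 (24163865 to 36042702, mm10), 13 genes at 10 loci were separated, of 348 tested. This stretch holds the major histocompatibility complex (MHC), a cluster of highly polymorphic antigen presentation genes. H2-Eb1, the beta chain of the class II molecule E, had 745 and 471 CPM in f/+ against 26.5 and 33.0 in +/+, or 608 ± 194 against 29.7 ± 4.55 (mean ± SD, n = 2 each). The f/f tumours had 635, 47.5, 713 and 816 CPM, so f/f replicate 2 lay near the +/+ tumours and the other 3 near the f/+ tumours. The H2-Eb1 difference between f/+ and +/+ was 4.35 ± 1.12 on the log2 scale. It was not called with all 8 tumours (adjusted p = 0.864) and was called without f/f replicate 2 (adjusted p = 0.0063) and by DESeq2 (0.0328).

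The ends of the stretch were set by separated genes for which f/f replicate 2 alone was nearer +/+ in log2 CPM. A shared division of the 8 tumours within it is thus in part set by that choice. Of its 13 separated genes, 11 had that division. The separated genes Tmem181b-ps and Fpr1 of the same chromosome lay outside the stretch and did not have it. Rps2, which encodes a protein of the small ribosomal subunit, had 40.0 and 46.3 CPM in f/+, 0.896 and 0.824 in +/+, and 37.5, 0.478, 41.4 and 36.6 in f/f. Rps18, another small-subunit gene, had 14.5 and 23.7 CPM in f/+, 1.12 and 0.824 in +/+, and 14.8, 0.409, 15.3 and 16.7 in f/f. Hmga1, a chromatin architectural protein gene used as an oncofetal marker, had 30.7 and 38.4 CPM against 4.39 and 3.88, with 19.0, 3.41, 18.9 and 21.8 in f/f. For each of these 3 genes f/f replicate 2 was below both +/+ tumours and the other f/f tumours were at least 4-fold above them. Atp6v0c, a proton pump subunit gene, and Igfals, which encodes a subunit of the circulating insulin-like growth factor complex, also had f/f replicate 2 alone on the +/+ side. D17H6S56E-5, a transcript beside the valyl-tRNA synthetase gene Vars, had 184 and 402 CPM against 20.5 and 19.6, with 135, 24.7, 193 and 167 in f/f. Vars itself had 107 and 143 CPM in f/+ against 59.8 and 65.4 in +/+. Rps2 and Rps18 have 11 and 3 pseudogene copies by name in GENCODE M21, and Atp6v0c shares its locus in the table with a second entry, so reads of near-identical copies could not be separated and the levels of genes in the stretch with such copies, Hmga1 included, are uncertain.

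The stretch was not uniform. The nonclassical class I gene H2-T22 had 9.74 and 11.9 CPM in f/+ and 1.57 and 1.94 in +/+, with f/f replicate 2 at 2.87 and the other f/f tumours at 12.3 to 16. Its neighbour H2-T23, which encodes the ligand Qa-1, had 25.9 and 30.6 CPM against 3.76 and 8.0, with f/f replicate 2 at 14.7, nearer f/+ than +/+. C4a, a complement component gene between them and H2-Eb1, ran the other way, with 14.8 and 8.36 CPM in f/+ against 32.6 and 37.1. Of the 348 genes tested in the stretch 33 (9.48%) had an unadjusted edgeR p under 0.05, against 5.12% of all tested genes. The stretch was drawn around separated genes with f/f replicate 2 alone nearer +/+. That count and the calls given next are in part set by this choice. EdgeR called none of the 348 with all 8 tumours and 10 without f/f replicate 2, and DESeq2 called 9. Most genes there did not differ 2-fold between all tumours of both genotypes. The class II list as a whole had a median log2 difference of 0.24 over 12 genes, and the class I list had -0.02 over 21.

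Promoter sequences of H2-Eb1 and Rps2, as members of the stretch with the widest gaps, are shown from RefSeq (GRCm38.p6, which shares mm10 coordinates), from 250 bases before to 50 after the start site. They are those of the reference assembly, not read from these mice. Capitals mark CCAAT, CTGATTGG (the Y box of class II promoters, which overlaps CCAAT on the other strand) and TATAAA, each searched on both strands.
H2-Eb1 (chr17:34305617-34305916, plus strand): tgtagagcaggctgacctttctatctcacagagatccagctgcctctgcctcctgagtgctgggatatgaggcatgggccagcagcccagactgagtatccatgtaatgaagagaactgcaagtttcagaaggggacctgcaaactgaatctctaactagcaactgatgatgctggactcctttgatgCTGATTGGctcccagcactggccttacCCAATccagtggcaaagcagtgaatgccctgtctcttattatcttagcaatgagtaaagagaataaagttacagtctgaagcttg
Rps2 (chr17:24719813-24720112, plus strand): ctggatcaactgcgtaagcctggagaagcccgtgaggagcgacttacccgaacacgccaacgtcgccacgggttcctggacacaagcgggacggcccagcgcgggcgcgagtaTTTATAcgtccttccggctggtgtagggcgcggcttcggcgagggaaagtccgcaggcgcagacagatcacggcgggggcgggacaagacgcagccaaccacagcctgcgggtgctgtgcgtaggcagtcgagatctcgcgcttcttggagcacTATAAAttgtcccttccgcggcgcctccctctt
The H2-Eb1 window holds CTGATTGG, whose first base is 62 bases before the start site, and a second CCAAT 35 bases before it. The Rps2 window holds TATAAA 2 times, 17 bases after the start site and, on the other strand as TTTATA, 137 bases before it. Among 32851 promoters in that table, 37.4% hold CCAAT, 4.10% hold CTGATTGG and 13.6% hold TATAAA. A match is a description of the letters and not a site of binding.

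On chromosome 2 the division was different. From Jmjd7 to Kcnip3 (120027483 to 127521392, mm10), 5 genes at 4 loci were separated of 90 tested (5.56%), all higher in f/+. Over all tested genes 0.648% were separated, and on the whole of chromosome 2 1.10%. The ends of this stretch were placed at separated genes, so its count is in part set by the choice. Eif3j1, a translation initiation factor subunit gene, had 5.05 and 5.86 CPM in f/+, 0.493 and 0.177 in +/+, and 5.46 to 9.33 in f/f (adjusted p = 0.169 with edgeR and 3.9e-09 with DESeq2). Kcnip3, which encodes a calcium-binding partner of potassium channels, had 7.08 and 3.81 CPM against 0.358 and 0.765, with 4.09 to 9.98 in f/f (adjusted p = 0.824 with edgeR and 0.0012 with DESeq2). Jmjd7, a hydroxylase gene, had 4.32 and 4.74 CPM against 0.762 and 0.471, with 3.57 to 9.75 in f/f (adjusted p = 0.824 with edgeR and 0.0045 with DESeq2). For these 3 genes all 4 f/f tumours, replicate 2 included, lay with the f/+ tumours. Frmd5, between Jmjd7 and Eif3j1, differed: its f/f tumours, at 0.409 to 0.972 CPM, lay nearer the +/+ level. Eif3j1 shares its counted interval with a near-identical copy, Eif3j2, which GENCODE places on chromosome 18.

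On chromosome 7, 6 overlapping entries for paired immunoglobulin-like receptors, a receptor family of myeloid and B cells, were lower in f/+ and count as 1 locus. Lilra6, the last of them, had 0.781 and 1.35 CPM in f/+ against 9.32 and 10.1 in +/+, with 2.23, 23.3, 1.87 and 1.03 in f/f. Here f/f replicate 2 was again the f/f tumour on the +/+ side. On chromosome 15 the reverse held for Rpl30, a large ribosomal subunit gene with 9 named pseudogene copies, outside the window around Lifr. Rpl30 had 18.3 and 28.9 CPM in f/+ against 1.39 and 1.59 in +/+, with 1.78, 23.8, 1.67 and 1.22 in f/f, so that f/f replicate 2 lay with f/+. Apol7c, an apolipoprotein L family gene on the same chromosome, had 6.82 and 4.32 CPM against 0.0896 and 0.294, with f/f replicate 2 at 6.89 and the other f/f tumours at 0.198 to 0.347.

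**Figure D3:**
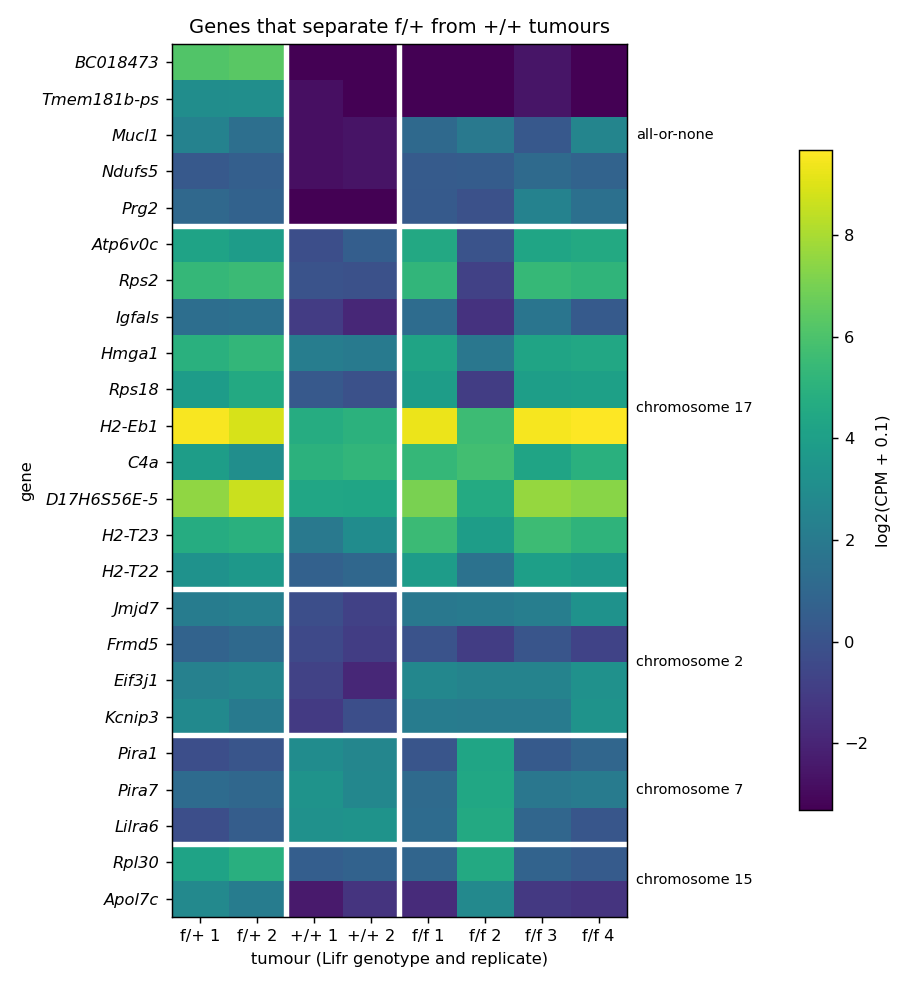
log2(CPM + 0.1) of the 5 all-or-none genes, of genes from the stretches on chromosomes 17, 2 and 7, and of Rpl30 and Apol7c, which lie apart on chromosome 15. Columns are the 8 tumours, by Lifr genotype and replicate. Within the chromosome 17 block f/f replicate 2 has the +/+ colours for Rps2 and H2-Eb1 and the other f/f tumours have the f/+ colours, while BC018473 and Tmem181b-ps are on in the f/+ tumours alone.

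Over all 99 separated genes the f/f tumours lay nearer f/+ more often than nearer +/+, by the distance of log2 CPM to each genotype's mean. All 4 f/f tumours were nearer f/+ for 40 genes, 3 of 4 for 29, and none for 14. By tumour, 68, 59, 69 and 74 of the 99 genes were nearer f/+ in f/f replicates 1 to 4. F/f replicate 2 was the only one nearer +/+ for 20 genes at 12 loci, 11 of the genes on chromosome 17 and 6 on chromosome 7. The other f/f tumours were alone on the +/+ side for 4, 3 and 2 genes. For 57 genes the mean of the f/f tumours lay between the f/+ and +/+ means, for 31 it lay beyond f/+, and for 11 beyond +/+. The label gives FVB/NJ for all 8 mice, and genotypes at these loci were not analysed here.

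The 2 f/+ tumours also differed from each other in ways that touch the gene lists. F/+ replicate 2 had Y-linked transcripts, with Ddx3y at 80.0 CPM, and Xist, the RNA of the inactive X chromosome, at 2.60 CPM. F/+ replicate 1 and both +/+ tumours had 1119 to 1258 CPM of Xist with Ddx3y at 0, so the f/+ pair was mixed in sex and the +/+ pair was not. Of the f/f tumours, replicate 3 had Ddx3y at 89.3 CPM and the others had 0. With a sex term in the model, which rests on f/+ replicate 2 and f/f replicate 3, the count of called genes was again 1. Acinar genes, which make the digestive enzymes of the pancreas, were the second difference. Summed over 32 genes in the table they reached 1845 and 14646 CPM in f/+ replicates 1 and 2 against 1214 and 2062 in +/+, and 2930 to 63145 in f/f. The acinar list had the largest median of the 45 lists other than the sex-linked one, 3.33 on the log2 scale, with 30 of 31 tested genes above 0, 6 with an unadjusted p under 0.05, none called by edgeR and 1 by DESeq2. That gene, Rbpjl, a transcription factor gene of acinar cells, had 1.82 and 22.9 CPM in f/+ against 0.538 and 0.353 in +/+ (adjusted p = 0.864 with edgeR and 0.00069 with DESeq2). The trypsinogen gene Try5 had 39.4 and 412 CPM against 7.03 and 23.2. F/+ replicate 2 was the highest of the 4 tumours for both genes. Of the defining acinar markers, Amy2a5 was listed at 0 in all 8 tumours and the other 5 were detected in each. In bulk RNA, fewer cells of a type and less RNA per cell cannot be told apart.

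In the edgeR fit none of the 45 lists held a called gene. Of their 756 tested genes 61, or 8.07%, had an unadjusted p under 0.05, against 5.12% of all tested genes. DESeq2 called 10 of the listed genes in 9 lists, of 58 called among all 15284 genes. Ptpn14 and Cldn18 were among the tumour cell lists. Of the 45 lists, 36 had a median within 0.5 log2 units of 0. Epcam, the antigen of the sort, had 748 and 800 CPM in f/+ and 890 and 660 in +/+ (log2 difference 0.00, interval -0.47 to 0.47). The epithelial list had a median of 0.16 over 28 genes and the ductal list 0.10 over 20. Spint1, a serine protease inhibitor of epithelia, had 153 and 162 CPM against 123 and 97.7 (adjusted p = 0.893), and Bicc1, an RNA-binding protein gene of ducts, had 93.7 and 108 against 63.7 and 80.7 (0.864). In the list of YAP and TEAD targets, genes of the Hippo pathway, 4 of 24 had an unadjusted p under 0.05, all higher in f/+. They were Ptpn14, Tead1, F3 and Tead4, and the list's median was 0.18. Ptpn14, a phosphatase gene that restrains YAP, had 77.9 and 88.2 CPM against 53 and 49.8, with 36.9 to 44.9 in f/f (f/+ against +/+, adjusted p = 0.669 with edgeR and 0.0041 with DESeq2). Tead1, a DNA-binding partner of YAP, had 144 and 147 CPM against 120 and 114 (adjusted p = 0.873). The claudin gene Cldn18, a tight junction gene of gastric-type epithelium, had 58.6 and 63.1 CPM in f/+ against 32.6 and 24.9 in +/+ (adjusted p = 0.864 with edgeR and 0.024 with DESeq2). RAS-MAPK output genes had a median of 0.04 over 21 genes, mitosis genes 0.01 over 23 and WNT targets 0.17 over 16. The tumour-initiating list had a median of -0.05 over 18 genes, with 1 gene higher and 1 lower at an unadjusted p under 0.05. Nes, a progenitor cell intermediate filament gene, was the lower one at 267 and 221 CPM against 368 and 353 (adjusted p = 0.864). Itga6 was the higher one at 303 and 418 CPM against 257 and 239 (adjusted p = 0.962).

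Transcripts of immune cells were present in all 4 sorted samples, and their lists had medians on both sides of 0. The T cell and NK cell list had a median of 1.92 over 16 genes, 16 of 16 above 0 and 5 with an unadjusted p under 0.05. Summed over 18 genes it was at 56.6 and 53.7 CPM in f/+, 25.3 and 33.8 in +/+, and 45.4 to 114 in f/f. Cd4, a T cell and macrophage co-receptor, had 17.1 and 12.5 CPM against 5.69 and 7.94 (adjusted p = 0.864 with edgeR and 0.019 with DESeq2). The B cell and plasma cell list had a median of 1.48, with summed levels of 1539 and 633 CPM against 446 and 346. Ms4a1, which encodes CD20, had 3.59 and 2.42 CPM against 0.941 and 1.12 (adjusted p = 0.937). Fcrla, an Fc receptor-like gene of B cells in that list, lay the other way at 9.74 and 8.41 CPM against 15.1 and 29.1 (adjusted p = 0.864 with edgeR and 0.042 with DESeq2). The dendritic cell list had a median of 0.58, with 8 of 10 genes above 0. At an unadjusted p under 0.05, 2 of its genes were higher and 1 lower. The lower one, Clec9a, had the smallest p of the list, at 0.833 and 1.72 CPM against 4.30 and 3.77 (adjusted p = 0.864). The summed level of the list overlapped between genotypes, at 542 and 265 CPM in f/+ and 409 and 418 in +/+. The macrophage list had a median of -0.06 with 7 of 18 genes above 0, and its summed level overlapped between genotypes, at 12395 and 9046 CPM in f/+ and 8632 and 15886 in +/+. Adgre1, the F4/80 antigen gene of macrophages, was lower in f/+ at 80.0 and 62.6 CPM against 118 and 112 (adjusted p = 0.864 with edgeR and 0.036 with DESeq2). Tyrobp, a signalling adaptor of myeloid and NK cells, had 286 and 188 CPM against 331 and 343 (adjusted p = 0.962). The pan-leukocyte list had a median of -0.32, with 11 of 12 genes below 0. The part of these lists in the other differences was not tested.

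The tuft cell list had a median of -0.42, with 5 of 15 genes at an unadjusted p under 0.05, all lower in f/+. Over all tested genes 5.12% had such a p. Alox5, the arachidonate lipoxygenase of tuft and myeloid cells, had 67.3 and 50.3 CPM in f/+ against 115 and 97.7 in +/+, and Ltc4s, which makes leukotriene C, had 42.0 and 25.0 against 64.4 and 51.4. Alox5 had an adjusted p of 0.864 and Ltc4s the same, so neither passed. In f/f, Ltc4s was at 84.8 to 97.4 CPM, above both +/+ tumours. The pan-leukocyte list was also below 0, at a median of -0.32. Whether the lower tuft list transcripts came from tuft cells or from leukocytes was not tested. Endothelial genes had a median of -0.58 over 13 genes, with summed levels of 52.9 to 107 CPM in the 4 tumours, and Tek, a receptor gene of vessels, was at 0.465 to 2.24 CPM. Fibroblast genes had a median of -0.13 over 16 genes, and Rgs5, a pericyte gene in that list, had 67.6 and 72.2 CPM against 14.6 and 28.8 (adjusted p = 0.864). Acta2 of the same list ran the other way, at 8.90 and 10.5 CPM against 14.3 and 23.2 (adjusted p = 0.983). The adipocyte list had a median of 2.06 with 5 of 5 tested genes above 0. Its level summed over 7 genes was 3.80 and 67.1 CPM in f/+ against 19.9 and 6.18 in +/+. By that sum f/+ replicate 2 was the highest of the 4 tumours and f/+ replicate 1 the lowest. Islet genes had a median of -0.56 over 23 tested genes. Summed over 26 genes, f/+ replicate 2 was the lowest at 378 CPM, with the other 3 tumours at 688 to 787. Of the EMT and mesenchymal genes 16 of 17 were below 0 (median -0.38), again with f/+ replicate 2 the lowest. All 24 respiratory chain genes were below 0, by a median of -0.14, and 10 of 11 heat shock genes were above 0, by a median of 0.31. The 3 replication-dependent histone genes tested had a median of -0.99, with 2 at an unadjusted p under 0.05. Summed over all 18 genes of that list, most of them below the filter, levels were 34.2 and 28.9 CPM in f/+ against 70.9 and 51.6 in +/+. Interferon-stimulated genes had a median of 0.39, with 25 of 29 above 0. Ifih1, a sensor of double-stranded RNA, had 33.0 and 31.5 CPM against 26.3 and 25.7 (adjusted p = 0.900). Ear2, an eosinophil-associated ribonuclease gene, was lower in f/+ at 320 and 432 CPM against 724 and 619 (adjusted p = 0.864), whereas Prg2 of the same list was the all-or-none gene described above.

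**Figure D4:**
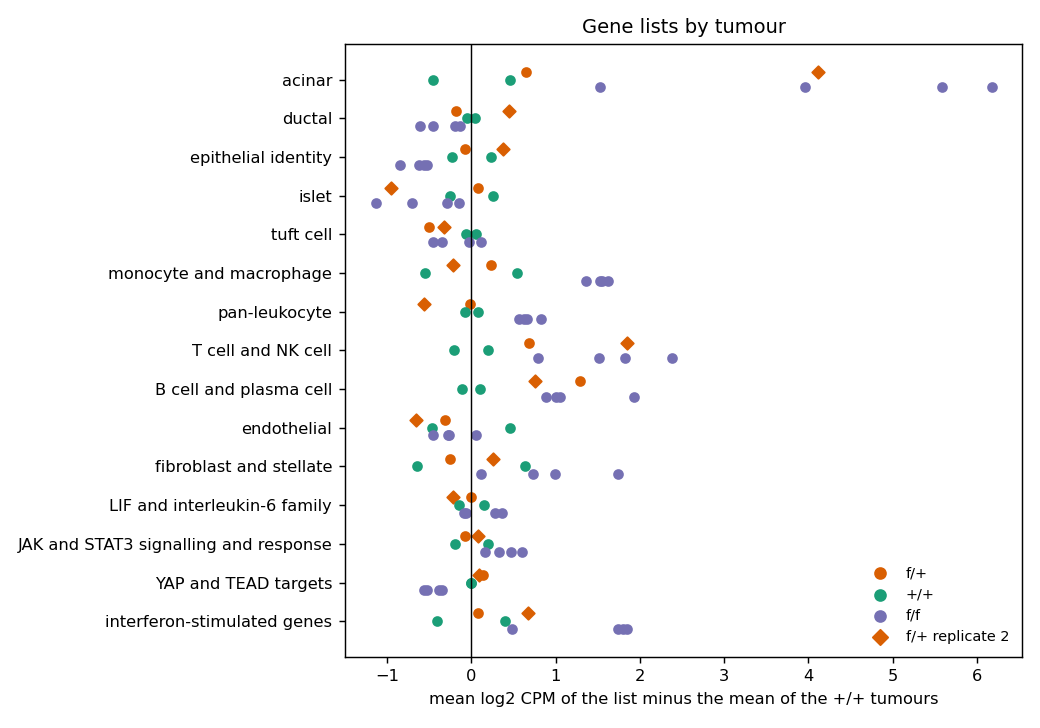
Mean log2 CPM of each of 15 gene lists in each tumour, as the difference from the mean of the 2 +/+ tumours, with 1 point per tumour and f/+ replicate 2 as a diamond. In the acinar list f/+ replicate 2 stands apart from f/+ replicate 1 and the +/+ tumours, and in the YAP and LIF family lists the f/+ and +/+ points lie close to 0.

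Among genes with the smallest p that were not called, named after their values were seen, several had gaps wider than the spread in either pair. Itih2, a hyaluronan-binding inhibitor heavy chain gene, had 17.1 and 27.6 CPM in f/+ against 4.30 and 5.53 in +/+ (log2 difference 2.19 ± 0.32, adjusted p = 0.416), with 4.78 to 7.68 in f/f. Fpr1, the formyl peptide receptor gene of phagocytes, had 12.8 and 9.85 CPM against 68.1 and 45.6 (adjusted p = 0.617), with 16.4 to 35.4 in f/f. Col16a1, a fibril-associated collagen gene, had 34.7 and 39.7 CPM against 92.3 and 97.5 (adjusted p = 0.669), with 33.9 to 57.6 in f/f. Cnr1, a cannabinoid receptor gene, had 2.76 and 1.21 CPM against 17 and 11.2 (adjusted p = 0.824), with 1.03 to 3.02 in f/f. For Cnr1 all 4 f/f tumours lay with the f/+ tumours, and for Itih2 they lay with the +/+ tumours. DESeq2 called all 4 of these genes.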

How the data were processed

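The authors deposited raw counts of reads per gene (exons of 1 RefSeq transcript per gene on mm10, counted by HOMER per the file headers) and FPKM values from the same program. Per the submitters' processing notes the tools were FastQC 0.11.2, STAR 2.4.0k, HOMER and edgeR 3.6.8; the strandedness of the libraries is not given in the sources used here. The kept transcript differs between the deposited tables for some genes, Lifr among them. Counts were fitted in R 4.3.3 with edgeR 4.0.16 (TMM scaling, filterByExpr at a minimum count of 10 and total of 15, glmQLFit and glmQLFTest over 3 Lifr genotypes). A gene was called where its p, adjusted over all 15284 genes tested (Benjamini-Hochberg), was under 0.05. Totals were 14938875 to 22698340 counts per tumour, and no libraries agreed within sampling noise. Deposited FPKM values were used for levels between genes and, as log2(FPKM + 1) and log2(FPKM + 0.1), in limma 3.58.1. DESeq2 1.42.0 was an alternative. The code was checked on simulated counts. The members, lists and rules were chosen with earlier results of these data known. Named genes are the LIF pathway genes, sex-linked genes, called and all-or-none genes, and runs of called genes. Where a list described held no called gene, up to 2 genes with the smallest p were picked. Not all of these are shown above. Others were named after their values were seen. Promoters come from RefSeq tables (GRCm38.p6), in which 64 of the 99 separated genes have an entry, and gene classes from GENCODE M21. A gene and an allele of the mice are not reported here.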

Additional observations from a re-analysis of the deposited data

Results flagged for a closer look

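For 18 of 117 named genes 1 of the 4 f/f tumours lay far from the others, its gap to the nearest other tumour, as a share of the whole range in log2 CPM, being above Dixon's 95% limit. The share is given after each gene. Chance alone flags about 1 in 20 such groups, but some of these genes were named for where f/f replicate 2 lay, and overlapping entries are counted separately, so the count is not to be set against that share. F/f replicate 2 was the tumour for 13 of them. It was low for Rps2 (0.971), Rps18 (0.965), Atp6v0c (0.951), Atp6v0c-ps2 (0.95), Hmga1 (0.922), H2-Eb1 (0.912), H2-T9 (0.865) and H2-T22 (0.848), all in the chromosome 17 stretch. It was also low for Kpna2 on chromosome 11 (0.939), an importin gene at 2.34 and 2.79 CPM in f/+ against 0.179 and 0.177 in +/+, and for Tead4 (0.888). F/f replicate 2 was high for Gm12191 (0.883) and Rpl30 (0.877), which share a locus on chromosome 15, and for Apol7c (0.873).

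F/f replicate 4 was high for Kcnip3 (0.956) and low for Rbpjl (0.847). F/f replicate 1 was low for Tmem86a (0.962), a lysoplasmalogenase gene at 67.3 CPM there and 81.0 to 81.6 in the other f/f tumours. F/f replicate 3 was flagged for BC018473 (1) and Tmem181b-ps (1) by a single count each where the other f/f tumours had 0.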

How the results depend on the processing

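The number of genes called between f/+ and +/+ tumours was 1 with DESeq2 size factors, library totals, no filter on low counts, a sex term, the acinar or macrophage list as a covariate, robust dispersions or an adjusted p under 0.01. It was 58 with DESeq2's Wald test (33 higher and 25 lower in f/+), 2 with the 4 tumours alone, 2 with limma on log2(FPKM + 1) and 3 on log2(FPKM + 0.1). Leaving out 1 tumour gave 0 to 15. Without f/f replicate 2 it was 15 genes at 11 loci, all higher in f/+, of which 10 genes lay in the chromosome 17 stretch, and without f/f replicate 3 it was 0; fewer tumours entered these fits, and the cause was not tested. Runs of called genes numbered 0 in all settings except DESeq2's Wald test, which gave 2 (Ear1 to Ang6 on chromosome 14, and H2-T23 to H2-T9). All-or-none genes numbered 13 at 10 counts or more on the high side, 3 at 50 or more, 2 at 0 counts on the low side, and 11 to 39 with 1 tumour left out, where the rule rests on 3 tumours. Separated genes numbered 37 at 3-fold, 136 at 0.5 CPM and 103 with library totals. The Lifr difference stayed positive and uncalled, at 0.12 to 0.61.

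Of 2290 values of 121 other named genes under these settings, 2205 kept their direction and side of the threshold, 56 were called where the reported fit did not call them, 1 lost its call and 28 changed sign. Those that changed sign were near 0 or sex-linked, and the cause was not tested. Epcam was at 0.000597 with DESeq2 size factors, 0.039 with library totals, 0.00055 with DESeq2, 0.0103 with the 4 tumours alone, 0.095 with the acinar and 0.017 with the macrophage covariate, and 0.0601 and 0.0604 in the FPKM fits. Il6st was at 0.035 with library totals, 0.0079 with the 4 tumours alone, 0.056 with the sex term, and 0.0398 and 0.042 in the FPKM fits. Lif was at 0.031 with the sex term and Osmr at -0.33 with the acinar covariate. With 1 tumour left out the ranges were -0.20 to 0.23 for Epcam, -0.026 to 0.013 for Il6st, -0.55 to 0.33 for Lif, -0.34 to 0.54 for Osmr and -0.51 to 0.021 for Socs3. With the sex term Xist was at 0.28 and Ddx3y at -0.12, and with the acinar covariate Tmem181a was at 0.016. The separated genes and robust dispersions were chosen after seeing the data. No paired analysis was possible because the labels carry no number shared between tumours of the genotypes. Genes under a few CPM are limited by depth, where 3 counts are 0.134 to 0.208 CPM.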

Other observations

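Several families of neighbouring, closely related genes had gaps of 2-fold or more at an unadjusted edgeR p under 0.05 without an edgeR call, and near-identical copies there can share reads. The eosinophil-associated ribonuclease and angiogenin genes on chromosome 14 were lower in f/+: Ear1 had 4.48 and 4.88 CPM against 33.0 and 10.1 in +/+, and Ang3 had 11.0 and 11.6 against 64.9 and 19.7. DESeq2 called Ear1 (adjusted p = 0.0078) and Ang3 (adjusted p = 0.036). The f/f tumours lay below both +/+ tumours for these genes, at 5.72 to 7.78 CPM for Ear1 and 4.79 to 7.08 for Ang3. Retinoic acid early transcripts, ligands of an NK cell receptor, were lower in f/+ on chromosome 10, with Raet1e at 0.989 and 0.697 CPM against 3.14 and 1.65. NK receptor genes on chromosome 6 were higher in f/+, with Klra4 at 4.63 and 17.4 CPM against 2.96 and 1.12, and Klrc1 at 1.2 and 3.25 against 0.538 and 0.235.

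Of 3 single genes that edgeR did not call, Muc5b, which encodes a gel-forming mucin, had 4.32 and 4.93 CPM in f/+ against 0.448 and 1.47 in +/+, with 0.341 to 1.04 in f/f (adjusted p = 0.864). Psca, a stem cell antigen gene of gastric and pancreatic duct epithelium, had 14.0 and 38.0 CPM against 2.15 and 0.530 (adjusted p = 0.873). Npy, which encodes neuropeptide Y, ran the other way at 16.7 and 7.11 CPM against 69.6 and 33.6, with 3.89 to 6.80 in f/f (adjusted p = 0.864 with edgeR and 0.0085 with DESeq2).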
